A study of Caenorhabditis elegans with 2 samples.

Results

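The genes gld-1, gld-2, gld-3, fbf-1, fbf-2, nos-3, puf-8, daz-1, atx-2 and spn-4 encode RNA-binding proteins and RNA-modifying enzymes that steer germ cell fate in the nematode Caenorhabditis elegans. These 10 genes were taken by name from the 19973 annotated protein-coding nuclear genes, and every region whose summit lay inside one of them or within 2 kb was listed. The regions come from chromatin immunoprecipitation with sequencing (ChIP-seq) of MES-2 in whole L4 hermaphrodites. Both samples are of 1 group, biological replicates 1 and 2 of strain OP248, a transgenic line that stably expresses MES-2 with GFP and FLAG fused to its C-terminus. The precipitation used an antibody to GFP, per the labels' descriptions, although their antibody field names mes-2, and the worms' age is given only as the L4 larval stage. The labels do not say whether an untagged mes-2 copy remains, and no wild-type or input sample was analysed here. Since whole worms were used, signal from germ cells and from somatic cells cannot be told apart.

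MES-2 is the Enhancer of zeste homologue of C. elegans, the histone H3 lysine methyltransferase of a Polycomb complex that it forms with MES-3 and MES-6, and it is known for its role in the survival of the germ line. The genes examined act mostly after transcription. FBF-1 and FBF-2 are near-identical PUF-family RNA-binding proteins that keep germline stem cells in mitosis, NOS-3 is a Nanos homologue that works with them, and PUF-8 is another PUF protein of the germ line. GLD-1 is a KH-domain translational repressor that promotes entry into meiosis, and GLD-2 is a cytoplasmic poly(A) polymerase with GLD-3, a KH-domain protein, as its partner. DAZ-1 is the homologue of the human DAZ proteins and is needed for oogenesis, ATX-2 is the ataxin-2 homologue, and SPN-4 is an RNA-binding protein that mothers supply to the early embryo.

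The deposited data on the ce11 build are 4 region lists. A thresholded list of 5501 peaks holds what passed the authors' threshold on irreproducible discovery rate, a measure of reproducibility. Of these peaks, 5235 overlapped a region of both replicates. Lists of 30000 regions each were made from the pooled reads, from replicate 1 and from replicate 2. All 5501 thresholded peaks are the 5501 pooled regions of highest signal, from 73.5 to 2503. Signal is a positive value per region on a scale that no label or file states, and it is used to rank regions within a list (rank 1 is the highest). Read counts are not in these lists and the depth is unknown, so a gene without a region is one without a region among the 30000 highest, not one shown to lack MES-2.

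Thresholded peaks upstream of 3 members carry most of the signal described here, and the DNA under them is shown first. The letters are those of the RefSeq WBcel235 genome (ce11), 5′ to 3′ on the strand of the member gene, over at most 300 bases around the summit and only outside annotated transcripts. Capitals mark the bases from the first to the last of the summits in the pooled list, replicate 1 and replicate 2. The nos-3 stretch is chrII:9746117-9746315 on the plus strand. The atx-2 stretches are chrIII:10460604-10460903, farther from the gene, and chrIII:10461178-10461388, next to it, both on the plus strand. The spn-4 stretch is chrV:6785147-6785446 on the minus strand.
nos-3: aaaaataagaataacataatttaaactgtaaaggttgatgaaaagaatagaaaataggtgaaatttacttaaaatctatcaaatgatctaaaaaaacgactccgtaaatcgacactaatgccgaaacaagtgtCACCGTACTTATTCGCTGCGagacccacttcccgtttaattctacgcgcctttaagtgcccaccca
atx-2, farther peak: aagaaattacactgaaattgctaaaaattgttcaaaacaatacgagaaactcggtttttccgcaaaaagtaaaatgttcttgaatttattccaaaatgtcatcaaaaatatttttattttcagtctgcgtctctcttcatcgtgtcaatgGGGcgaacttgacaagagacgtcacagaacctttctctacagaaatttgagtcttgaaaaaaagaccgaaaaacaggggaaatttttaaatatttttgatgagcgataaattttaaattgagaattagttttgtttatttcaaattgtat
atx-2, nearer peak: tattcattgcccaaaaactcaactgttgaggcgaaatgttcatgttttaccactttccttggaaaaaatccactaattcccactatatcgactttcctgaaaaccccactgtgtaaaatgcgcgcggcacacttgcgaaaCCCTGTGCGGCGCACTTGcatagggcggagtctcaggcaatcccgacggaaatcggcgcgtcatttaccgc
spn-4: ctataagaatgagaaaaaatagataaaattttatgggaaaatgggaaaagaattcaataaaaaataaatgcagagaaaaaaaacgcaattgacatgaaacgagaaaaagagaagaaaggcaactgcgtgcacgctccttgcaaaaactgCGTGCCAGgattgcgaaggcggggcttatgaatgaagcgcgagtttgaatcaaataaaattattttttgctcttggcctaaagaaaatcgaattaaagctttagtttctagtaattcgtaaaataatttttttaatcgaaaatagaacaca

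The capitals span 3 bases at the farther atx-2 peak, 8 bases at spn-4, 18 bases at the nearer atx-2 peak and 20 bases at nos-3. The replicates thus placed these 4 summits within 20 bases or less of each other. The farther atx-2 stretch has a GC content of 29.7% and the nearer one of 48.8%, so the paired peaks of 1 gene lie in sequence of unlike base composition. In windows of 300 bases around each summit, GC was 29.7%, 47.7% and 44.0% at the 3 atx-2 peaks, 32.3% at spn-4, 35.3% at nos-3 and 43.3% at gld-2, against a median of 40.3% and a range of 23.3% to 65.7% over all 5501 thresholded peaks. The letters GAGAG, searched on both strands, were in the windows of 4 of the 6 member peaks, namely gld-2 and all 3 of atx-2, and in 3408 of all 5501 (62.0%). The letters TTTGAA were in 5 of the 6 and in 2644 of all 5501 (48.1%). These windows were not shortened, so at nos-3 and the nearer atx-2 peak they reach into annotated transcripts. The GAGAG match at the nearer atx-2 peak and the TTTGAA match at nos-3 are not within the printed stretches. The share of other genomic windows with either string was not counted, and a match describes the sequence only.

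Of the 10 genes, 4 had a thresholded summit inside the gene or within 2 kb, namely atx-2, spn-4, nos-3 and gld-2. The share over all protein-coding genes was 31.8% (6351 of 19973, exact 95% interval 31.2% to 32.4%, counting error only). Thresholded summits within 500 bp of an annotated transcript start were found at 3 members, atx-2, spn-4 and nos-3, where all genes gave 16.5% (3305 of 19973, interval 16.0% to 17.1%). Both intervals treat genes as independent, although neighbouring genes can share a summit, and they do not cover differences between replicates. In the pooled list 7 members had a region, against 52.3% of all genes, and the members without one were gld-3, fbf-1 and puf-8. Replicate 1 had a region at 7 members against 57.8% of all genes, and replicate 2 at 8 members against 57.2%. No list had a region at 2 members, fbf-1 and puf-8, while 35.6% of all genes had none. With 10 genes each one moves a share by 10 percentage points, and the list was not tested against other genes. Within the list the levels were far apart: atx-2, spn-4 and nos-3 ranked high in the pooled list and in both replicates, and the others ranked low or were absent from at least 1 list, gld-2 standing between.

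**Figure D1:**
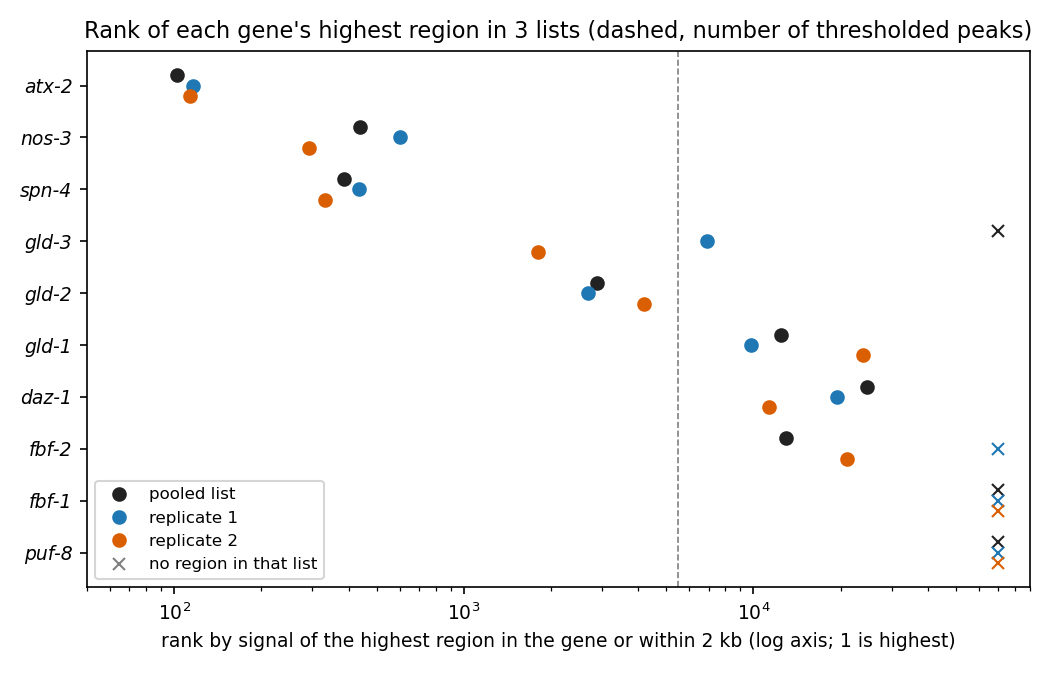
Rank by signal of each gene's highest region in the pooled list and in either replicate (log axis, 1 is the highest), with crosses for no region in that list. The atx-2, nos-3 and spn-4 regions rank between 102 and 604 in every list, the gld-2 region between 2679 and 4180, and fbf-1 and puf-8 have none.

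The members held 6 thresholded, 42 pooled, 30 replicate 1 and 37 replicate 2 regions. The gap between the few high and the many low regions was wide. The 6 thresholded peaks had signals of 1066, 841, 556, 514, 139.7 and 134. The other 36 of the 42 pooled regions lay below the lowest thresholded signal, between 18.98 and 64.2 with a median of 30.5, and the median of the whole pooled list was 34.4. Of the 42 pooled summits, 25 lay in coding exons, 7 in introns, 7 between genes, 2 in 3' UTRs and 1 in a 5' UTR. Another protein-coding gene lay within 2 kb of 27 of the 42 summits. Neither this count nor the annotation classes were set beside those of all 30000 pooled regions. The rule takes only summits in or near a gene, so these counts describe the listed regions only. The longest members, gld-2 with 16.45 kb and atx-2 with 6.66 kb, also held the most pooled regions, 16 and 12.

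**Figure D2:**
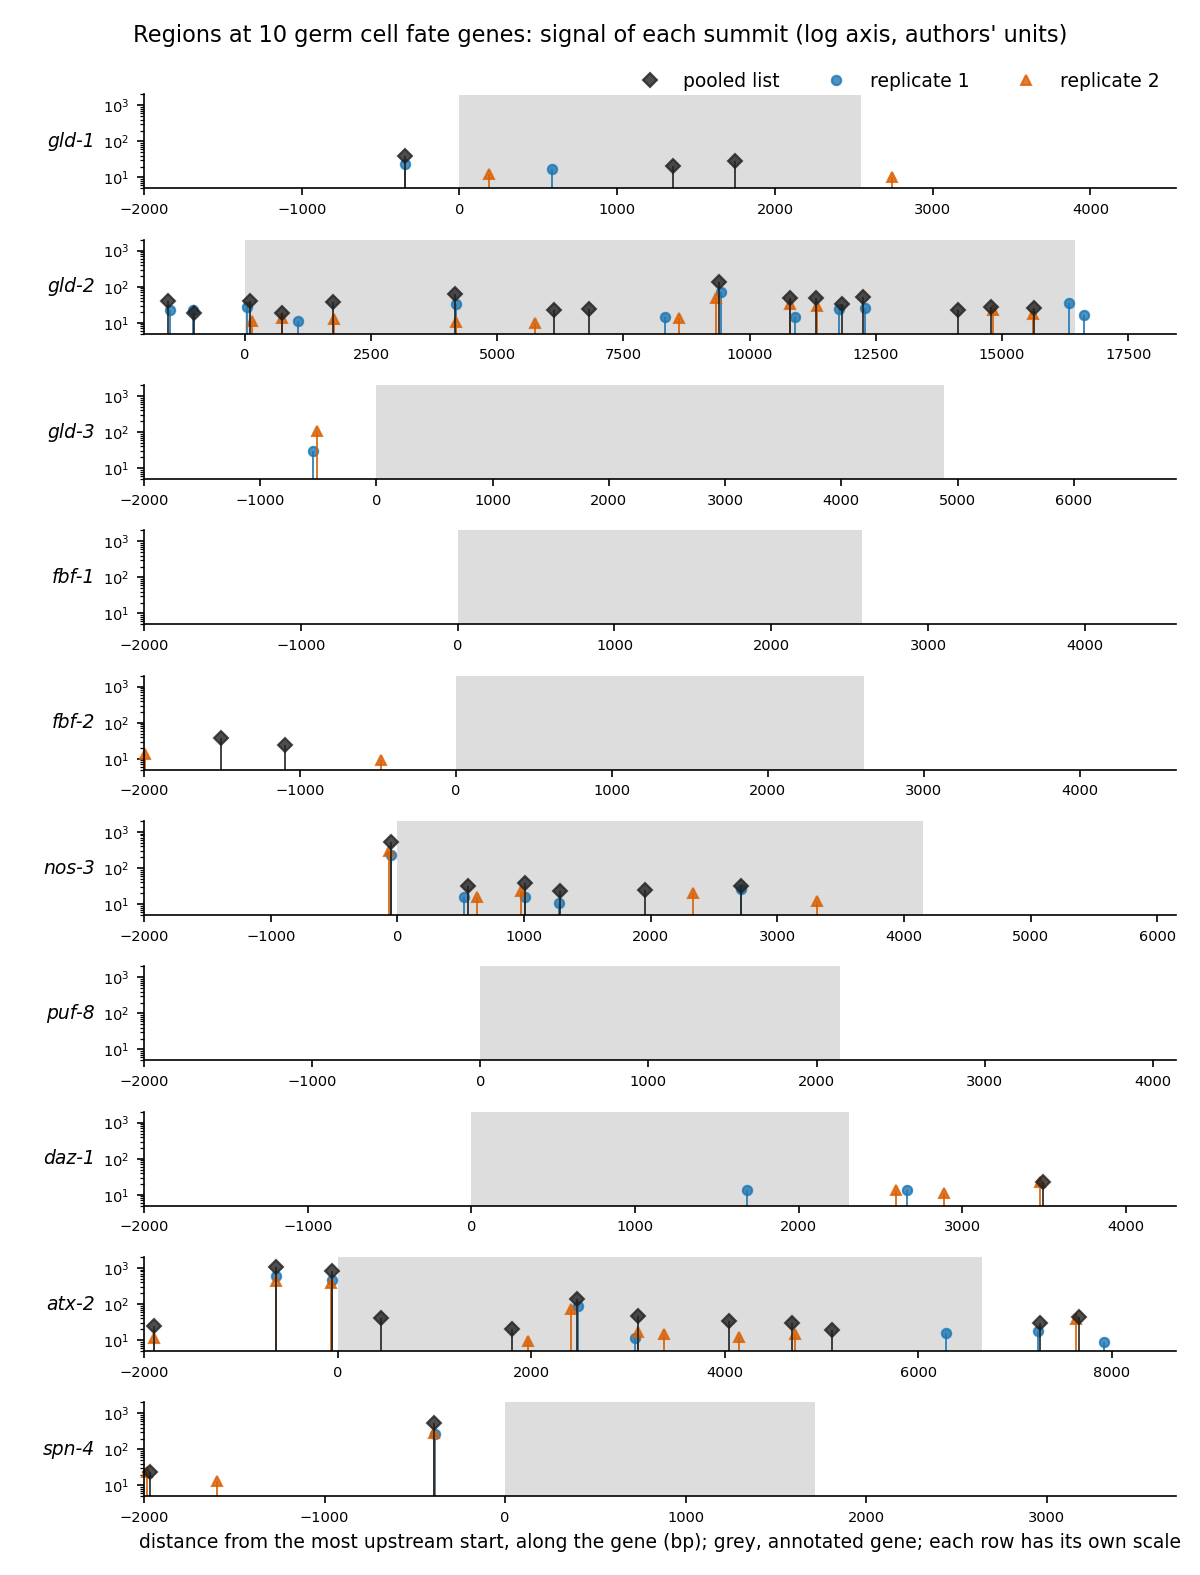
Signal of each region (log axis, authors' units) against the distance of its summit from the gene's most upstream start, with the annotated gene in grey and 2 kb on each side. The highest regions of atx-2, nos-3 and spn-4 lie upstream of the gene, with a pooled diamond and both replicate symbols at almost the same place, and the gene bodies hold only lower regions.

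The gene atx-2 (chromosome III, 10461389 to 10468051, plus strand, 4 annotated starts) had the highest values. Its ataxin-2 protein is an RNA-binding regulator of translation that the germ line needs. The farther upstream peak had its summit 635 bp before the most upstream start, at 10460754, with a pooled signal of 1066 at rank 102, 592 at rank 116 in replicate 1 and 446 at rank 113 in replicate 2. The nearer upstream peak, 61 bp before the start at 10461328, had 841 at rank 166, then 478 at rank 167 in replicate 1 and 381 at rank 167 in replicate 2. The order of the pair was the same in both replicates, and the replicate ranks of each peak were at most 3 apart. The weakest of the 3 thresholded peaks of atx-2 lay in an intron at 10463861, which is 2472 bp into the gene and 595 bp before the nearest internal start. Its signal was 139.7 at rank 2758, with 86.1 at rank 2259 in replicate 1 and 74.8 at rank 2697 in replicate 2. The remaining 9 pooled regions inside atx-2 or within 2 kb had signals of 19.2 to 46.4. Among them, 30.6 and 43.1 lay in coding exons of the neighbour D2045.5 and 24.6 in one of the neighbour ecps-1. The low replicate regions had 8.57 to 17.6 in replicate 1 and 9.62 to 38.8 in replicate 2. Of these values, 8.57, 17.6 and 38.8 were in coding exons of D2045.5.

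The upstream stretch of atx-2 is shared. The neighbour ecps-1 is transcribed away from atx-2, with 838 bp between the starts, and the farther peak is nearer to the ecps-1 start, at 203 bp, than to that of atx-2, at 635 bp. The nearer peak has no other protein-coding start within 500 bp, so atx-2 is the 1 member with a start peak, of 3, whose start peak is not shared with a neighbour. Over all protein-coding genes, 233 (1.17%) had a higher region in the gene or within 2 kb than atx-2. With summits within 500 bp of a start, 195 genes (0.976%) were higher.

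The gene spn-4 (chromosome V, 6783187 to 6784903, minus strand) had 1 thresholded peak, with its summit at 6785297, 394 bp before the start. The pooled signal was 556 at rank 385, with 273 at rank 436 in replicate 1 and 284 at rank 331 in replicate 2. Replicate summits were 7 bp apart. No region of any list lay inside spn-4 itself, a short gene of 1.72 kb. The other regions within 2 kb were in coding exons of the neighbour spe-39, with 23.1 in the pooled list and 13.3 and 23.7 in replicate 2. The spn-4 peak also lies within 500 bp of the start of spe-39, a gene named for its role in sperm formation, with 548 bp between both starts. Its summit is nearer to the spe-39 start, at 154 bp, than to that of spn-4. Of all protein-coding genes, 872 (4.37%) had a higher region in the gene or within 2 kb.

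The gene nos-3 (chromosome II, 9746316 to 9750462, plus strand, 5 annotated starts) had its summit at 9746267, 49 bp before the most upstream start. The pooled signal was 514 at rank 440, with 224 at rank 604 in replicate 1 and 299 at rank 293 in replicate 2. Replicate 2 thus placed this peak higher in its list than replicate 1 did, as it also did for spn-4. Summits of the replicates were 19 bp apart. Inside nos-3 the other 5 pooled regions were all in coding exons, with signals of 22.5 to 38.5. Replicate 1 had 4 such regions at 10.8 to 26.3 and replicate 2 had 4 at 12.5 to 23.2. The peak lies between the starts of nos-3 and Y53C12B.1, which are 238 bp apart and point away from each other, at 189 bp from the Y53C12B.1 start, and the data do not tell which of them it belongs to. Of all protein-coding genes, 981 (4.91%) had a higher region in the gene or within 2 kb.

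**Figure D3:**
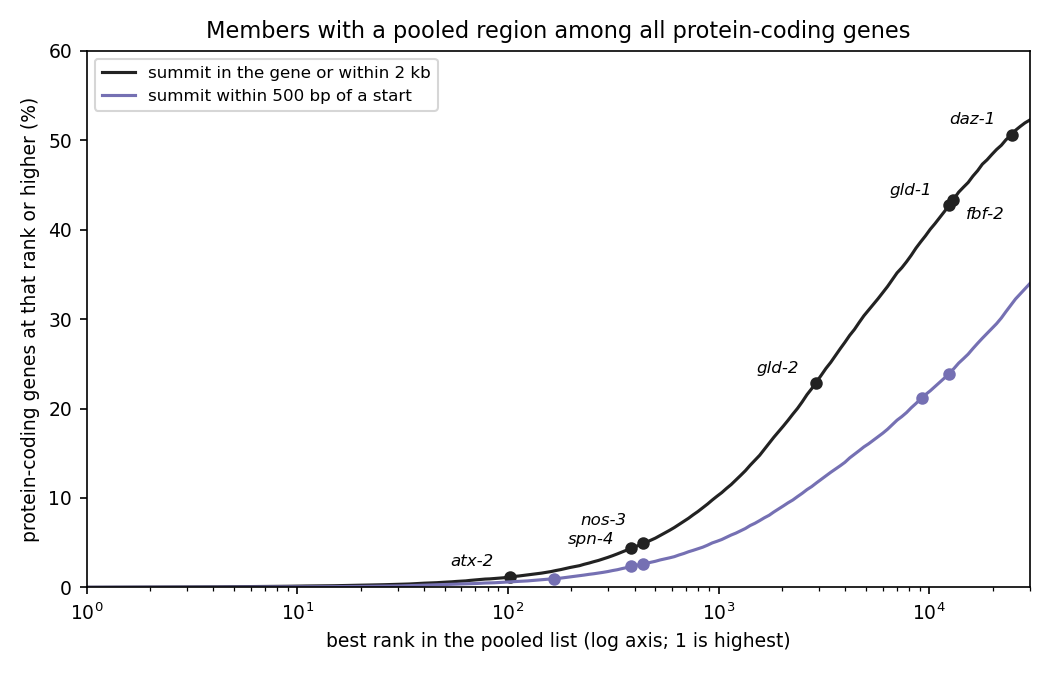
Share of all protein-coding genes (%) whose best pooled region reaches a given rank (log axis, 1 is the highest), in the gene or within 2 kb (black) and within 500 bp of a start (violet), with members as points. The points of atx-2, spn-4 and nos-3 lie at 1.18% to 4.92% on the black line and those of gld-1, fbf-2 and daz-1 at 42.7% to 50.6%.

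The gene gld-2 (chromosome I, 6369748 to 6386194, plus strand, 6 annotated starts) was the fourth member with a thresholded peak, and its pattern was unlike the other 3. The summit at 6379136 lay in an intron, 9388 bp after the most upstream start and 1517 bp after the nearest internal one. Its signal was 134 at rank 2891, with 72.2 at rank 2679 in replicate 1 and 49.7 at rank 4180 in replicate 2. The summits of the replicates were 99 bp apart, the widest of the 6 member peaks, and the thresholded interval is 52 bp wide against a median of 188 bp over the thresholded list. The next region of gld-2 had 64.2 at rank 6477, below the lowest thresholded signal of 73.5. The replicates differed there, with 33.0 at rank 6323 in replicate 1 and 10.6 at rank 27136 in replicate 2. The 15 other pooled regions ran from 18.98 to 64.2. Among them, 41.2 and 19.2 lay 1520 bp and 1016 bp before the most upstream start. Both were within 500 bp of the start of the neighbour ZC308.4, the lower one in a coding exon of it. Replicate 1 had regions there too, both with 22.9, and 1 with 16.7 in an intron of the neighbour klu-2. At the most upstream start, a region in the 5' UTR had 39.5 at rank 12498 in the pooled list, 26.9 at rank 8302 in replicate 1 and 10.9 at rank 26409 in replicate 2. Of all protein-coding genes, 4556 (22.8%) had a higher region in the gene or within 2 kb than gld-2.

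All 6 thresholded member peaks overlapped a region among the 5501 highest of replicate 1 and of replicate 2. Over all thresholded peaks, 3564 of 5501 (64.8%) did so, and 5235 (95.2%) overlapped a region of both replicates at any rank. The 4 upstream member peaks rank 102 to 440 in the thresholded list, and pooled signal is made from the same reads as the replicates. The share among thresholded peaks of like rank was not counted. The distance between replicate summits had a median of 18 bp and a range of 2 to 99 bp at the 6 member peaks, against a median of 20 bp over all thresholded peaks. Both intron peaks, those of gld-2 with 99 bp and atx-2 with 77 bp, had the wide distances, and the 4 upstream peaks had 2 to 19 bp. The 4 upstream peaks were also the 4 of highest signal.

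**Figure D4:**
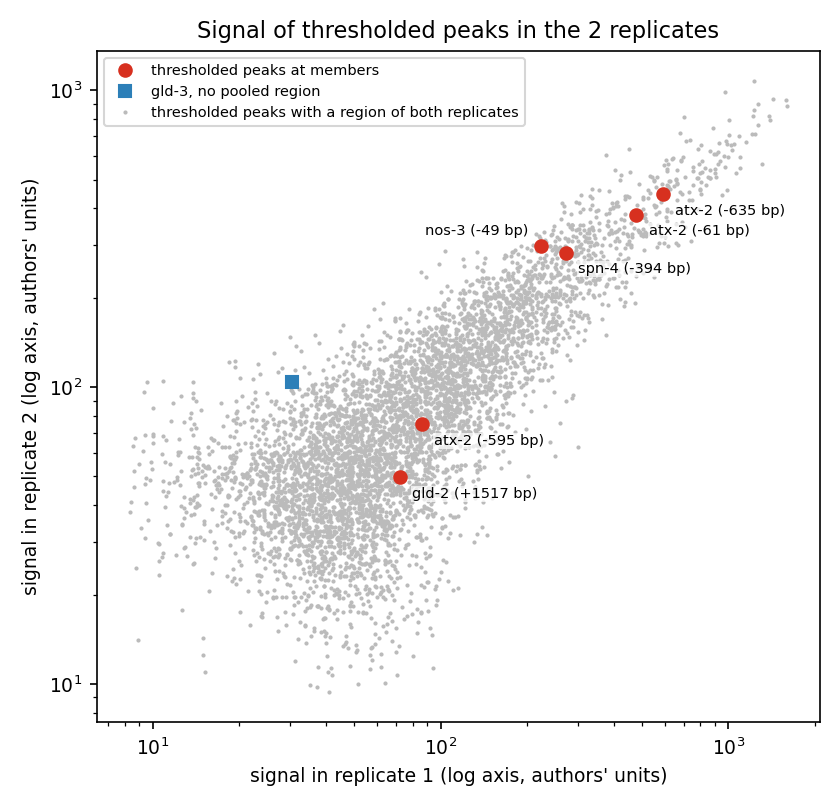
Signal in replicate 2 against signal in replicate 1 (both log axes, authors' units) for thresholded peaks with a region of both replicates (grey), the 6 member peaks (red, with the distance to the nearest start) and the gld-3 regions (blue). The 4 upstream peaks of atx-2, spn-4 and nos-3 lie at 224 to 592 in replicate 1 and 284 to 446 in replicate 2, while the gld-3 pair has 30.6 and 104.

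The gene gld-3 (chromosome II, 7132643 to 7137522, plus strand) was listed in both replicates and not in the pooled reads. Replicate 1 had a summit 545 bp before the start, with 30.6 at rank 6943. Replicate 2 had one 514 bp before the start, with 104 at rank 1806. These intervals share 103 bases, chrII:7132079-7132181, and the summits are 31 bp apart. The shared stretch is shown because both replicates list it, and it was chosen after its values were seen. It is printed on the plus strand from the RefSeq WBcel235 genome, with capitals from 1 replicate summit to the other.
gld-3: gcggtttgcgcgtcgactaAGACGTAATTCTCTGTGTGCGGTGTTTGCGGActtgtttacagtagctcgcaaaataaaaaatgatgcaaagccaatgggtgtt

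The nearest pooled summit to the replicate 2 summit at gld-3 was 1843 bp away, with 25.5 at rank 21670. Both summits are closer to the start of the neighbour T07F8.4, at 66 bp in replicate 1 and 97 bp in replicate 2, than to the start of gld-3, and neither lies within 500 bp of the gld-3 start. Of the 1806 replicate 2 regions at or above this rank, 81 (4.49%) overlapped no pooled region. Among the 5501 highest regions, 415 of replicate 2 (7.54%) and 403 of replicate 1 (7.33%) overlapped none. The nearest thresholded summit to gld-3 was 8.90 kb upstream, with 80.5 at rank 4965, in a coding exon of F10E7.2.

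The gene gld-1 (chromosome I, 7695681 to 7698222, plus strand) had low regions only. The highest pooled one was 348 bp before the start, with 39.6 at rank 12413, and replicate 1 had 23.6 at rank 9846 at 344 bp before the start. Replicate 2 had no region there, and its highest was 12.1 at rank 23914, in a coding exon 187 bp after the start. The other regions had 29.3 and 20.9 in the pooled list, 17.6 in replicate 1 and 10.1 in replicate 2. The one with 10.1 lay beyond the end of gld-1, in an intron of the neighbour T23G11.10 and within 500 bp of its start. The upstream region was thus listed in 1 replicate of 2. By gene and 2 kb flank, 8523 protein-coding genes (42.7%) had a higher pooled region than gld-1. The nearest thresholded summit lay 2872 bp beyond the end of gld-1, 87 bp from the start of T23G11.11, with 377 at rank 743.

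The gene daz-1 (chromosome II, 5456305 to 5458609, plus strand) had 1 pooled region, downstream of the gene and 3493 bp from the start, with 22.5 at rank 24623. Replicate 2 had a summit 3475 bp from the start, with 22.1 at rank 11346, and 2 lower downstream regions with 13.7 and 11. Replicate 1 had 13.7 at rank 19417 downstream and 13.1 in an intron. No region of any list lay upstream of the daz-1 start within 2 kb. A thresholded summit lay 2447 bp beyond the gene's end, just outside the 2 kb flank, with 127 at rank 3057.

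None of the PUF genes among the members had a thresholded peak in the gene or within 2 kb. The gene fbf-2 (chromosome II, 6088863 to 6091480, minus strand) had 2 pooled regions upstream, with 38.4 at rank 12960 in a coding exon of tpp-2 and 24.7 at rank 22361 in a coding exon of nspg-3. Replicate 1 had none there, and replicate 2 had 13.6 at rank 21051 and 9.44 at rank 29825, again in tpp-2 and nspg-3. The gene fbf-1 (chromosome II, 6078263 to 6080843, minus strand) had no region in any list, and its nearest thresholded summit was 16.6 kb away. The gene puf-8 (chromosome II, 7296110 to 7298247, minus strand) had none either. The nearest thresholded summit to puf-8 was 3611 bp upstream of it and 243 bp from the start of cul-4, with 499 at rank 459.

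Over the annotated genes, fbf-1 and fbf-2 matched at 94.0% of aligned bases (2379 identities, 153 mismatches and 135 gap bases), and over the 500 bp upstream of their starts at 71.1%. How the authors placed reads that match both copies is stated in no label or file, so the counts of regions at fbf-1 and fbf-2 are uncertain. Of the stretches of 36 bases in the gene and its flanks, 42.5% at fbf-1 and 19.5% at fbf-2 occurred more than once in the nuclear genome. The share was 9.75% at gld-3, 3.74% or less at the other members and 0% at puf-8, the other gene without a region in any list. The part of repeated sequence in the absence of regions at fbf-1 was not tested. None of the stretches of 36 bases in the 6 thresholded intervals or in the shared gld-3 stretch was repeated.

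Peaks like the farther atx-2 peak were ranked by the summed absolute difference of log2 signal over the pooled list and both replicates. Each was named by its nearest protein-coding start with a gene symbol. Genes with only a sequence name were passed over and may have a closer start. The peak most alike was named by sec-61.G, with signals of 1073, 595 and 444 and a summed difference of 0.02. It was followed by peaks near fbxb-58, with 999, 582 and 453 and a difference of 0.14, and near cyn-4, with 1076, 586 and 485 and a difference of 0.15. The sec-61.G and fbxb-58 starts lie 2345 bp and 1020 bp from those summits, and the cyn-4 start 132 bp. The likeness rests on 3 values per peak, of which the pooled one is made from the same reads as the others.

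A list of 47 other genes of germ cell fate control was set beside the members, and 45 matched an annotated symbol (mog-6 and dnd-1 did not). In the literature mog-6 is another name of cyn-4, named above. Its start peak is left out of the counts that follow. A thresholded summit lay within 500 bp of a start at 13 of the 45 (28.9%), against 3 of 10 members and 16.5% of all protein-coding genes, and inside the gene or within 2 kb at 27 (60%), against 4 of 10 members and 31.8% of all genes. No test of these shares was made. The signals at the 13 starts ran from 83.4 to 1047 with a median of 202, and 6 of the 13 peaks were shared with another protein-coding start. Of all thresholded summits with a start within 500 bp, 643 of 2871 (22.4%) had starts of 2 or more genes there.

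The highest of the 13 were at mog-4, with 1047 at rank 107, and at mog-3, with 1042 at rank 109. The uncounted cyn-4 start peak, with 1076 at rank 100, was higher than both. The mog genes act in the switch from sperm to oocyte production, and several encode factors tied to pre-mRNA splicing. Replicate ranks were 81 and 149 for mog-4 and 76 and 179 for mog-3. Next came teg-1 with 369 and ccf-1, a deadenylase of the CCR4-NOT complex, with 327, and then mog-5 with 266. After these stood car-1, a component of germline RNA granules, with 249.9, pab-1, which encodes a poly(A)-binding protein, with 202, and puf-12 with 187.

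Grouped by role after the values were seen, 5 of 7 mog and teg genes, 3 of 3 genes of the CCR4-NOT deadenylase complex (ccf-1, ccr-4 and let-711) and 3 of 4 genes of general mRNA-bound proteins (car-1, cgh-1 and pab-1, not larp-1) had a start peak, where the share over all protein-coding genes was 16.5%. The group of oocyte and embryo RNA-binding proteins, such as oma-1, mex-3 and pos-1, had none of 9. None of 4 genes of the stem cell pool and Notch signalling (lst-1, sygl-1, glp-1 and lag-1) had one, nor any of 6 genes of members' partners and poly(A) factors. Among 8 other Nanos and PUF genes, puf-12 alone had one. Of 4 genes of the sperm or oocyte decision, fem-3 had one, with 83.4. With any thresholded summit in the gene or within 2 kb, where all genes gave 31.8%, the counts were 4 of the 9 oocyte and embryo genes, 3 of the 4 stem cell pool genes, 4 of the 6 partner and poly(A) genes, 2 of the 8 Nanos and PUF genes and 1 of the 4 genes of the sperm or oocyte decision. They were 6 of 7 mog and teg genes, 3 of 3 CCR4-NOT genes and 4 of 4 genes of general mRNA-bound proteins. These groups are small, and neither a difference between them nor one from all genes was tested.

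**Figure D5:**
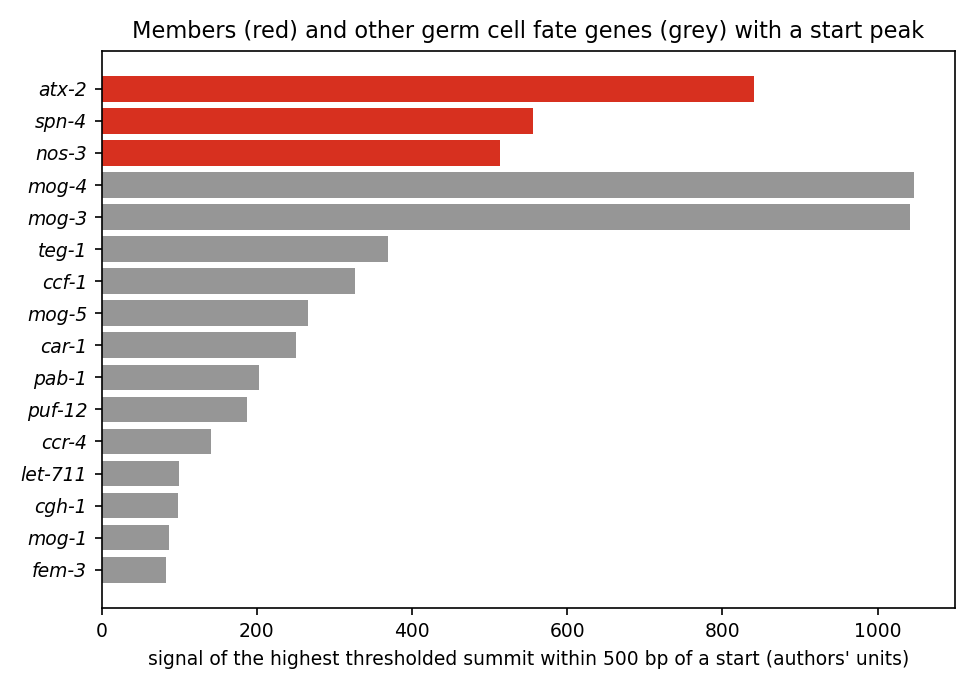
Signal (authors' units) of the highest thresholded summit within 500 bp of a start at 3 members (red) and at the 13 other germ cell fate genes that had one (grey). The atx-2 bar, 841, is exceeded by mog-4 and mog-3, and the spn-4 and nos-3 bars, 556 and 514, are above the other 11 grey bars. The higher start peak of cyn-4, known as mog-6, is not plotted.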

How the data were processed

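ChIP-seq of tagged MES-2 was deposited as region lists for 2 biological replicates of 1 group, with no separate cultures described in the labels. Per the deposited layout each region has a signal of unstated scale and a −log10 q-value, which was used only for 1 alternative. Per the submitters' file lists, the authors called regions against a control alignment, in each replicate and in the pooled reads, and thresholded by irreproducible discovery rate. The aligner, the peak caller and that threshold are not stated there. The 4 lists on ce10 were not used. No read counts come with the lists, so no value has an interval from reads.

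Summits were placed on Ensembl release 115 gene models of WBcel235, whose chromosomes contain every region. A region counted for a gene when its summit lay inside it or within 2 kb, and for a start at up to 500 bp from any start of a protein-coding transcript. Regions were matched between lists by an overlap of at least 1 base. The counting was tested on simulated data. The 10 genes, the pathway list and the windows were chosen with earlier results of these data known. No test was run, since there is 1 group, and counts stand beside the share of all protein-coding genes. The rule named all 10 genes, protein-coding neighbours with a start within 500 bp of a thresholded member summit, the 8 pathway genes of highest start signal, and the 3 peaks most like the highest member peak. Other named genes were chosen after their values were seen. Printed sequences were shortened to bases outside annotated transcripts, a change from the plan. Python 3.11.15, numpy 2.4.6, pandas 2.3.3, Biopython 1.88 and matplotlib 3.10.9 were used. Of the alternatives, 45 were planned and 3 were added after seeing the data.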

Additional observations from a re-analysis of the deposited data

How the results depend on the processing

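The count of members with a thresholded summit inside the gene or within 2 kb, 4, became 7 with a 5 kb flank, which added daz-1, gld-1 and puf-8, and 7 with every pooled region, an alternative chosen after seeing the data. It was 3 with the 2750 strongest peaks, which lost gld-2, and 4 to 5 without either replicate, where gld-3 was added without replicate 1. The 3 members with a summit within 500 bp of a start became 5 with pooled regions of −log10 q of at least 2 and with every pooled region, both times by gld-1 and gld-2. Without summits shared with another protein-coding start, also chosen after seeing the data, 1 was left, atx-2. With the 250 bp window, and with the nearest start only, 2 were left.

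The share of all genes with a summit in the gene or within 2 kb, 31.8%, was 26.1% with a 1 kb flank, 44.6% with 5 kb, 22.1% with the 2750 strongest, 47.1% with −log10 q of at least 2, and 32.0% to 33.1% without either replicate. The share within 500 bp of a start, 16.5%, was 11.3% at 250 bp, 20.6% at 1000 bp, 15.4% with the most upstream start, 13.5% with the nearest start, 11.2% with the 2750 strongest and 27.6% with −log10 q of at least 2. By construction, a wider window or a longer list can only add genes to these shares. A narrower window, fewer starts or a shorter list can only remove them. The lists of 1 replicate alone are not nested in this way, and the cause of their shifts was not tested. The 13 pathway genes ranged from 9 to 19. Without replicate 1 the ranks of gld-1, fbf-2, daz-1 and nos-3 moved by more than 1.5 times, to 23914, 21051, 11346 and 293. With summits within 500 bp of a start only, the ranks of gld-2 and atx-2 did so, to 9195 and 166, and fbf-2 and daz-1 had no such region. No paired analysis was possible because there is 1 group. Depth is unknown, so absent regions cannot be told from regions missed at low depth.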

Other observations

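At larp-1, mex-1 and cpb-2 of the other germ cell fate genes, thresholded summits lay in the gene or within 2 kb but not within 500 bp of a start, with highest signals of 758, 811 and 408. At ccr-4, cgh-1 and mog-1 the highest summit in the gene or within 2 kb, 484, 444 and 135, was above the one at the start, 140.2, 98.5 and 86.9. These genes were named after their values were seen. The gene cyn-4, near one of the peaks most like the highest atx-2 peak, is known in the literature as mog-6. The annotation used here does not carry that symbol, so cyn-4 was not counted among the pathway genes. Its peak, 132 bp from its start with 1076 at rank 100, was higher than the start peaks of mog-4 and mog-3. The pathway and mog counts and the order given for them leave it out.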
